A study of Mus musculus with 14 samples.

Results

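Polycomb complex genes were followed through the response of mouse embryonic stem (ES) cells to mTOR inhibition. The set holds 10 genes, chosen by name as subunits of the Polycomb repressive complexes: Ezh1, Ezh2, Eed, Suz12, Jarid2, Mtf2, Rnf2, Cbx7, Pcgf6 and Kdm2b. Each name matched 1 of the 54446 gene identifiers in the files, and all 10 were among the 15878 genes tested. The 14 libraries were bulk RNA-seq of E14 cells, a feeder-free ES cell line kept in serum with LIF. Wild-type (WT) cells were collected before treatment (0 h) and after 24, 72 and 144 h of INK128, a catalytic inhibitor of mTOR (mTORi). Cells lacking functional Tet1 and Tet2 (Tet1/2 DKO), the enzymes that oxidise methylated cytosine, were collected at 0, 24 and 72 h. Each of the 7 groups had 2 replicates. The DKO cells were a line derived from the WT cells by Cas9 cutting and single-cell sorting, so the genotype and the history of that line cannot be told apart, and no DKO library at 144 h was analysed here. RNA came from a fixed number of sorted living cells in all groups.

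Polycomb proteins keep developmental genes silent in ES cells while leaving them ready for later use. Polycomb repressive complex 2 (PRC2) methylates a lysine in the tail of histone H3 through Ezh2 or its less active relative Ezh1, and needs Eed and Suz12 as its core, whereas Jarid2 and Mtf2 mark alternative forms that differ in how they reach chromatin. Polycomb repressive complex 1 (PRC1) ubiquitinates histone H2A through Rnf2 (RING1B). In canonical PRC1 a Cbx protein, mostly Cbx7 in ES cells, binds the PRC2 mark, while variant PRC1 lacks the Polycomb-type Cbx proteins and is built on other partners such as Pcgf6 or recruited to unmethylated CpG islands by Kdm2b.

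The deposited values are transcripts per 1000000 (TPM), a length-scaled share of each library that sums to 1000000, so a higher TPM is a larger share of the RNA and not more RNA per cell. A further scale was therefore set beside them: TPM multiplied by 1 factor per library, taken from the study's own normalisation to ERCC spike-in RNAs. The step at which the spike-ins were added is not given in the sources used here, so whether this scale is one of RNA per cell is not known. On that scale the median log2 change of all genes tested was −0.34, −0.35 and −0.88 in WT at 24, 72 and 144 h and −0.51 and −0.15 in DKO at 24 and 72 h, against −0.0012 to 0.13 on deposited TPM. In bulk RNA, fewer cells of a type and less RNA per cell cannot be told apart. Among the targeted genes, Tet2 was at 99.7 and 96.0 TPM in WT and 19.1 and 22.2 TPM in DKO at 0 h (log2 difference −2.19, adjusted p = 0.00010), and Tet1 was at 197 and 191 TPM against 152 and 147 TPM (−0.38, adjusted p = 0.079). Tet3, which was not targeted, was at 6.04 and 6.82 TPM against 8.18 and 7.23 TPM (0.23, adjusted p = 0.415). The Tet1 values count the whole gene and do not show whether its transcript is intact. All 10 ES cell markers were above 1 TPM in every group, with a sum of 4800 to 7374 TPM. Primitive endoderm markers summed to 404.6 and 419.5 TPM in WT at 24 h and to 104.8 and 149.7 TPM in DKO at 24 h, against 37.2 to 96.8 TPM in the libraries of all other groups, and none of the 8 was at 0 in any library.

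The promoters of both PRC2 enzymes and of Suz12 are shown because these genes encode PRC2 subunits, with Ezh1 and Ezh2 as alternative enzymes, and yet differed in their changes over time. RefSeq sequences (GRCm38.p6) of 300 bases around the annotated start were searched on both strands for 6 motifs: the E2F forms TTTCCCGC and TTTGGCGC, the CCAAT box, the GC box GGGCGG, the E-box CACGTG and the FOXO core GTAAACA. Capitals mark E2F forms and CCAAT boxes on either strand. Ezh1 lies at chr11:101226414-101226713 on the minus strand, Ezh2 at chr6:47594981-47595280 on the minus strand and Suz12 at chr11:79992856-79993155 on the plus strand.
Ezh1: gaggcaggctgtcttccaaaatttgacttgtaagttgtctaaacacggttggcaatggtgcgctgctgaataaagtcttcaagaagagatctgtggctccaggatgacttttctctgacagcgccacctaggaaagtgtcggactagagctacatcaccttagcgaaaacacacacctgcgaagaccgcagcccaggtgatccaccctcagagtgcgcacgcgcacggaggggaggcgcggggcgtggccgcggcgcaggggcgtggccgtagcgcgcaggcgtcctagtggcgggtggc
Ezh2: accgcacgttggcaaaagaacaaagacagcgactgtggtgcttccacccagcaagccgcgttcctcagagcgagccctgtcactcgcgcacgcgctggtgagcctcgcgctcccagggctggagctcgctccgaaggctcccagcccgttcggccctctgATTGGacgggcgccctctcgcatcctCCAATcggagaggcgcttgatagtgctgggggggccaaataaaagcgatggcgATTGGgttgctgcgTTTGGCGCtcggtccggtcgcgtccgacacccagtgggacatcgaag
Suz12: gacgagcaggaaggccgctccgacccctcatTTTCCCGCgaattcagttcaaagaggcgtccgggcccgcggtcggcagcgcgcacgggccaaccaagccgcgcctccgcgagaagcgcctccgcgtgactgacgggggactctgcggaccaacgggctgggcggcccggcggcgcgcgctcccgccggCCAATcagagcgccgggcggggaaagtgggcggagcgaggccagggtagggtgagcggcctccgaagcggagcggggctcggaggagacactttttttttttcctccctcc
The Ezh2 window holds 1 TTTGGCGC and 3 CCAAT boxes, and the Suz12 window 1 TTTCCCGC, 1 CCAAT box and 3 GC boxes. The Ezh1 window holds 0 matches to any of the 6 motifs. Of all 32851 RefSeq promoter windows of this length, 1.07% hold TTTCCCGC, 0.514% TTTGGCGC, 37.4% a CCAAT box, 35.7% a GC box, 7.15% the E-box and 3.65% the FOXO core. CpG dinucleotides number 23 in the Ezh1 window, 31 in that of Ezh2 and 41 in that of Suz12. A match is a description of the letters and not of binding.

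Before treatment the 10 genes spanned a wide range of levels in WT cells. Jarid2 (308 ± 19.9 TPM, mean ± SD, n = 2) and Eed (289 ± 6.52) were highest and their replicates overlapped. Mtf2 followed at 247 ± 29.8 TPM, then Ezh2 at 148 ± 5.39 and Suz12 at 147 ± 26.0, which overlapped. Cbx7 (123 ± 5.41) and Kdm2b (105 ± 21.5) overlapped with each other, as did Rnf2 (60.7 ± 2.92) and Pcgf6 (55.3 ± 10.8). Ezh1 was lowest at 14.6 ± 1.31 TPM, below Ezh2 in every library.

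**Figure D1:**
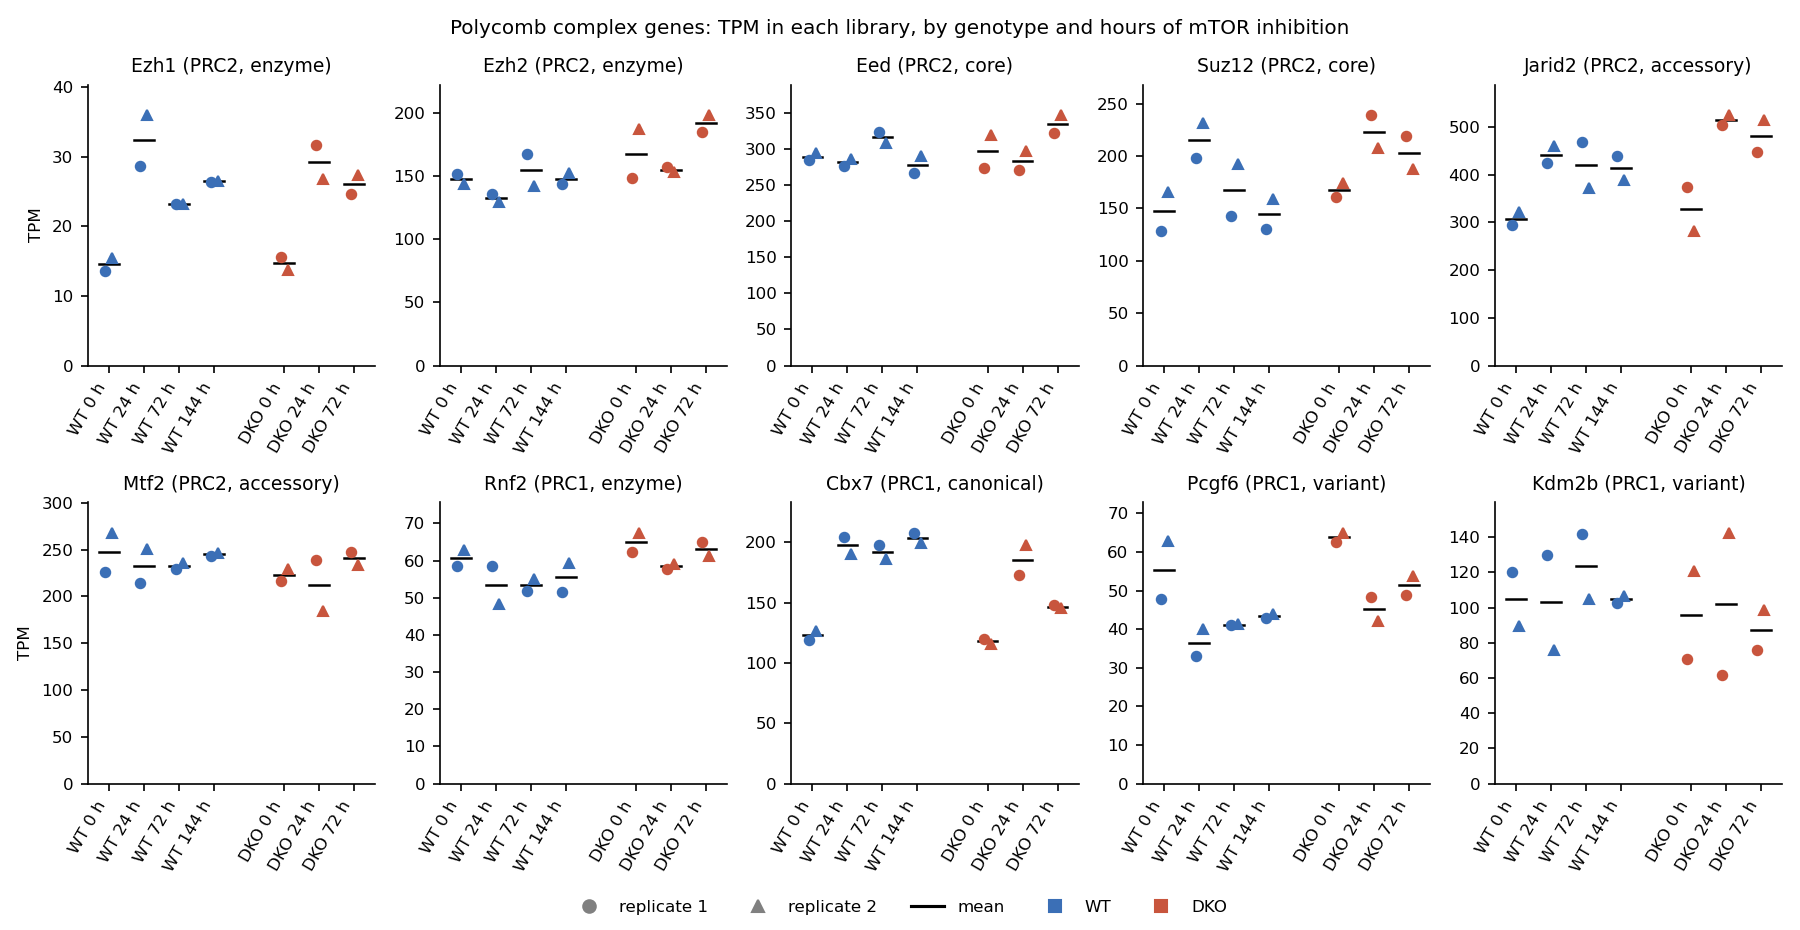
TPM (vertical axis, from 0) of the 10 Polycomb complex genes in each library, grouped by genotype and hours of mTORi on the horizontal axis, with 1 symbol per replicate and a bar at the mean. Ezh1 and Cbx7 lie above their 0 h libraries in every treated group and Pcgf6 lies below them, as shares of a library (with spike-in factors Ezh1 and Cbx7 were below 0 h in WT at 144 h).

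Ezh1, the minor PRC2 methyltransferase, had the largest change of the set on deposited TPM. On mm10 the gene spans chromosome 11, 101191115 to 101226463, on the minus strand. It was at 13.6 and 15.5 TPM in WT at 0 h, 28.7 and 36.0 at 24 h, 23.3 and 23.2 at 72 h, then 26.3 and 26.6 at 144 h. In DKO it was at 15.6 and 13.8 TPM at 0 h, 31.7 and 26.8 at 24 h, then 24.7 and 27.4 at 72 h. All treated libraries of both genotypes were above all untreated ones. The 24 h means were the highest, but in DKO the 24 h and 72 h libraries overlapped. In WT the share rose at 24 h, 2.13-fold on the TPM + 1 scale (log2 fold change 1.09, SE 0.129, adjusted p = 0.00025, limma with Benjamini-Hochberg adjustment, as for every adjusted p here), and it was still higher at 72 h (log2 fold change 0.64, SE 0.129, adjusted p = 0.0053) and at 144 h (log2 fold change 0.82, SE 0.129, adjusted p = 0.0015). In DKO it rose at 24 h (log2 fold change 0.94, SE 0.129, adjusted p = 0.00070) and was higher at 72 h (log2 fold change 0.79, SE 0.129, adjusted p = 0.0023). These 5 calls held without any 1 replicate. With spike-in factors none passed unless the replicate number was added as a block within each genotype, where WT at 24 h did (0.75, adjusted p = 0.016). At 144 h the direction turned: Ezh1 changed by −0.16 (adjusted p = 0.683), which was 0.72 above the median of all genes.

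Ezh2, the main methyltransferase of proliferating ES cells, passed the test in no comparison on deposited TPM. It was at 151 and 144 TPM in WT at 0 h, 135 and 129.8 at 24 h, 167 and 142 at 72 h, then 144 and 152 at 144 h. In DKO the values were 148 and 187 TPM at 0 h, 157 and 153 at 24 h, then 185 and 199 at 72 h. The WT groups at 72 and 144 h overlapped with 0 h, and the 24 h libraries lay just below it (log2 fold change −0.15, SE 0.114, adjusted p = 0.337). At 144 h the log2 difference was 0.0045 with an SE of 0.114.

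Of the PRC2 core, Eed, which binds the methylated histone tail, passed in no comparison on deposited TPM, with all libraries between 267 and 347 TPM. Suz12, the scaffold on which the complex is assembled, was at 129 and 166 TPM in WT at 0 h, 198 and 232 at 24 h, 143 and 192 at 72 h, then 131 and 159 at 144 h. The gene spans chromosome 11, 79993106 to 80034123, on the plus strand. The 24 h libraries were above both untreated ones, and the later groups overlapped with 0 h. Suz12 was called higher at 24 h in WT (log2 fold change 0.55, SE 0.174, adjusted p = 0.033), and at 72 h and 144 h the differences were 0.18 (adjusted p = 0.473) and −0.02 (adjusted p = 0.945). In DKO it was at 161 and 174 TPM at 0 h, 239.5 and 207 at 24 h, then 219 and 188 at 72 h, with no overlap with 0 h, but the differences of 0.41 (adjusted p = 0.103) and 0.28 (adjusted p = 0.253) did not pass. With the replicate number as a block within each genotype both DKO differences passed, at adjusted p = 0.0095 for 24 h and 0.045 for 72 h. The WT call at 24 h was lost without WT 0 h replicate 1 (0.37, adjusted p = 0.204), without WT 24 h replicate 1 (0.66, adjusted p = 0.052) and without WT 24 h replicate 2 (0.43, adjusted p = 0.18). With spike-in factors it was 0.18 (adjusted p = 0.754). In DKO the direction turned with spike-in factors, to −0.15 (adjusted p = 0.751) at 24 h and −0.027 (adjusted p = 0.977) at 72 h, and neither passed with the block added.

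The accessory subunits differed from each other. Jarid2, a DNA-binding member of the PRC2.2 form, was at 294 and 322 TPM in WT at 0 h, 423 and 459 at 24 h, 467 and 373 at 72 h, then 438 and 389 at 144 h. In DKO it was at 374 and 283 TPM at 0 h, 504 and 525 at 24 h, then 447 and 513 at 72 h. The gene spans chromosome 13, 44729474 to 44921643, on the plus strand. Every treated library was above every untreated one of its genotype. Jarid2 was called higher in WT at 24 h (log2 fold change 0.52, SE 0.150, adjusted p = 0.023), in DKO at 24 h (log2 fold change 0.66, SE 0.150, adjusted p = 0.0088) and in DKO at 72 h (log2 fold change 0.56, SE 0.150, adjusted p = 0.020), and missed the threshold in WT at 72 h (0.44, adjusted p = 0.052) and 144 h (0.43, adjusted p = 0.055). With median centring the calls in WT at 24 h (0.45, adjusted p = 0.053) and in DKO at 72 h (0.40, adjusted p = 0.087) were lost. The call in WT at 24 h was lost without any 1 of its 4 libraries (adjusted p 0.053 to 0.117). The DKO call at 24 h was lost without DKO 0 h replicate 2 (0.46, adjusted p = 0.074), and that at 72 h without DKO 0 h replicate 2 (0.36, adjusted p = 0.151) or DKO 72 h replicate 2 (0.46, adjusted p = 0.121). With spike-in factors Jarid2 was called in no comparison and its direction turned in WT at 144 h, to −0.60 (adjusted p = 0.091, or 0.025 with the block). Mtf2, a PRC2.1 subunit that binds unmethylated CpG-rich DNA, stayed between 184 and 268 TPM and passed in no comparison on deposited TPM.

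In PRC1, Rnf2, the ubiquitin ligase common to canonical and variant forms, lay between 48.3 and 67.6 TPM over all libraries and passed in no comparison on deposited TPM. Cbx7, which brings canonical PRC1 to the mark laid by PRC2, was at 119 and 127 TPM in WT at 0 h, 205 and 190.4 at 24 h, 198 and 186 at 72 h, then 208 and 199.5 at 144 h. In DKO it was at 120.2 and 116 TPM at 0 h, 173 and 198 at 24 h, then 148 and 145 at 72 h. The gene spans chromosome 15, 79915807 to 79971119, on the minus strand. Each treated library exceeded all untreated ones, and in DKO the 72 h libraries were below those of 24 h. Cbx7 was higher in WT at 24 h (log2 fold change 0.68, SE 0.0855, adjusted p = 0.00035), 72 h (log2 fold change 0.64, SE 0.0855, adjusted p = 0.00081) and 144 h (log2 fold change 0.72, SE 0.0855, adjusted p = 0.00040). In DKO the rise was 0.64 (adjusted p = 0.00063) at 24 h and 0.31 (adjusted p = 0.022) at 72 h, the latter 0.18 above the median of all genes. The 72 h call in DKO was lost with median centring (0.16, adjusted p = 0.264) and without any 1 of its 4 libraries (adjusted p 0.057 to 0.109), and the other Cbx7 calls over time held. With spike-in factors none passed, and at 144 h the direction turned to −0.30 (adjusted p = 0.355), which was 0.58 above the median of all genes. The 3′ end of Cbx7 shares 100 of its 6487 exonic bases with Apobec3 on the opposite strand, and the strand setting of the counting is not given in the sources used here. Apobec3 differed in the other direction, by −0.79 (adjusted p = 0.015) in WT and −0.65 (adjusted p = 0.040) in DKO at 24 h.

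Pcgf6, the defining subunit of a variant PRC1 that silences germline genes, was the only gene of the set called lower over time on deposited TPM. It was at 47.7 and 62.9 TPM in WT at 0 h, 33.0 and 39.9 at 24 h, 41.0 and 41.4 at 72 h, then 43.0 and 44.0 at 144 h. In DKO it was at 62.5 and 65.0 TPM at 0 h, 48.2 and 42.0 at 24 h, then 48.9 and 53.9 at 72 h. The gene spans chromosome 19, 47033619 to 47050845, on the minus strand. No treated library reached the untreated ones of its genotype, and the 24 h means were the lowest. Pcgf6 was called lower in WT at 24 h (log2 fold change −0.58, SE 0.135, adjusted p = 0.0081) and 72 h (log2 fold change −0.40, SE 0.135, adjusted p = 0.048) and in DKO at 24 h (log2 fold change −0.49, SE 0.135, adjusted p = 0.021), but not at 144 h (−0.33, adjusted p = 0.092) or in DKO at 72 h (−0.31, adjusted p = 0.112). Each of these 3 calls rested on single libraries. The WT call at 24 h was lost without WT 0 h replicate 2 (−0.39, adjusted p = 0.064) or WT 24 h replicate 1 (−0.45, adjusted p = 0.067). That at 72 h was lost without WT 0 h replicate 2 (−0.21, adjusted p = 0.3), WT 72 h replicate 1 (−0.40, adjusted p = 0.14) or WT 72 h replicate 2 (−0.41, adjusted p = 0.152). The DKO call was lost without DKO 0 h replicate 1 (−0.52, adjusted p = 0.061), DKO 0 h replicate 2 (−0.46, adjusted p = 0.098) or DKO 24 h replicate 2 (−0.40, adjusted p = 0.105). With spike-in factors Pcgf6 was below 0 h in all 5 comparisons over time, from −0.61 in DKO at 72 h to −1.34 in WT at 144 h (adjusted p = 0.0019).

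Kdm2b, which binds unmethylated CpG islands and brings variant PRC1 to them, had the widest spread between replicates in the set. It was at 120.3 and 89.8 TPM in WT at 0 h, 130.1 and 75.9 at 24 h, 142 and 105 at 72 h, then 103 and 107 at 144 h. The DKO values were 70.8 and 121 TPM at 0 h, 61.8 and 143 at 24 h, then 76.0 and 98.9 at 72 h. Replicate 1 was the higher one in WT at 0, 24 and 72 h and the lower one in every DKO group. The SE of each difference between 2 groups was 0.393 on the log2 scale, against 0.0855 for Cbx7, and no comparison passed on deposited TPM. Kdm2b shares 627 of its 10869 exonic bases with Rnf34 on the opposite strand, which lay between 18.5 and 26.7 TPM.

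**Figure D2:**
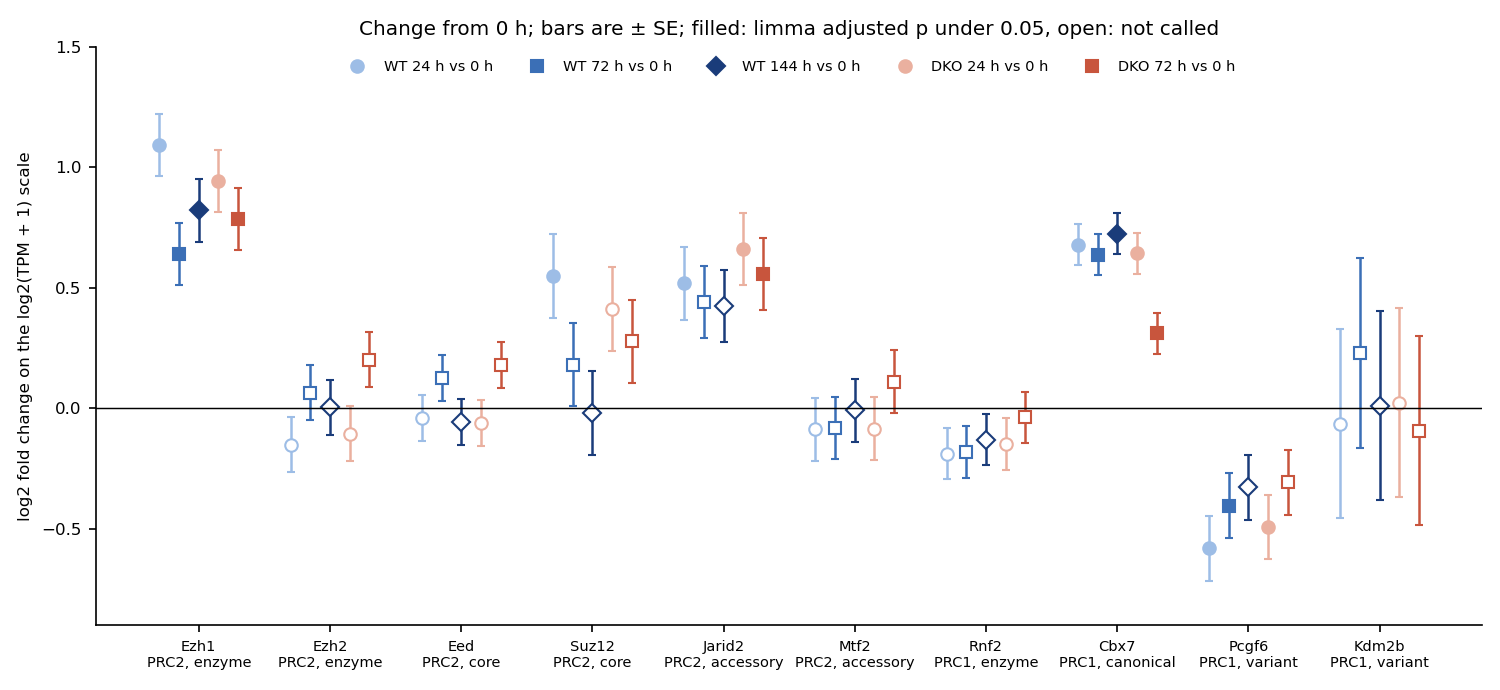
Log2 fold change from 0 h on the log2(TPM + 1) scale (vertical axis) for each gene, ordered by complex, in the 5 comparisons over time. Bars are ± SE and filled symbols have a limma adjusted p under 0.05: Ezh1 and Cbx7 are filled above 0 in each comparison (both turn below 0 in WT at 144 h with spike-in factors), Pcgf6 lies below 0 in each, and Ezh2, Eed, Mtf2, Rnf2 and Kdm2b are open throughout.

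Counted by comparison, 5 of the 10 genes were called in WT at 24 h, 4 higher and 1 lower, where 33.3% of all genes tested were called (17.6% higher, 15.7% lower). In WT at 72 h 2 were called higher and 1 lower, against 27.2% of all genes (14.4% higher, 12.8% lower). At 144 h 2 were called higher and 0 lower, against 30.1% (17.4% higher, 12.7% lower). In DKO at 24 h 3 were called higher and 1 lower, against 28.2% (13.2% higher, 15.1% lower), and at 72 h 3 were called higher and 0 lower, against 28.9% (18.8% higher, 10.2% lower). With median centring more genes were called lower than higher in each of these 5 comparisons, with 2162 higher and 2600 lower in place of 2762 and 2019 in WT at 144 h and 1782 and 2590 in place of 2978 and 1613 in DKO at 72 h. The counts of higher calls at 24 h, 4 in WT and 3 in DKO, stood above the shares on deposited TPM and those at later times closer to them. The WT count was 3 with median centring and 2 with no filter, and with spike-in factors it was 0 in both genotypes. This describes 10 genes, chosen with earlier results of these data known, with no test, and the comparisons of a genotype share their 0 h libraries. The median log2 change of the 10 genes was −0.053 in WT at 24 h, 0.15 at 72 h and −0.0016 at 144 h, beside −0.0012, 0.035 and 0.057 for all genes tested. In DKO it was −0.019 at 24 h and 0.19 at 72 h, beside 0.0028 and 0.13. Without 1 replicate it ranged from 0.0058 to 0.13, from 0.054 to 0.17 and from −0.027 to 0.042 in WT and from −0.15 to 0.23 and from 0.069 to 0.29 in DKO, so at 24 h and at 144 h its sign rested on single libraries. At 24 h the primitive endoderm markers moved as well: 8 of 8 were called higher in WT and 1 of 8 in DKO. Their part in the 24 h values of the Polycomb genes was not tested.

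Ratios within a library do not depend on the scaling, and describe how subunits stood to each other. These ratios were chosen after the values were seen and are given without a test. Ezh1 made up 8.27 and 9.73% of the summed TPM of both methyltransferases in WT at 0 h, 17.5 and 21.7% at 24 h, 12.2 and 14.03% at 72 h, then 15.5 and 14.9% at 144 h. In DKO the shares were 9.51 and 6.87%, 16.8 and 14.9% and 11.8 and 12.1% at 0, 24 and 72 h. Ezh2 thus held most of the methyltransferase mRNA in every library, and the Ezh1 share was above its untreated values in each treated one. Between the accessory subunits, Jarid2 per Mtf2 was 1.30 and 1.199 in WT at 0 h and 1.80 and 1.58 at 144 h. Between canonical and variant PRC1, Cbx7 per Pcgf6 was 2.50 and 2.01 in WT at 0 h, 6.21 and 4.77 at 24 h, then 4.84 and 4.54 at 144 h, and in DKO 1.92 and 1.78 at 0 h and 3.03 and 2.697 at 72 h. Within the PRC2 core, Suz12 per Eed was 0.453 and 0.563 in WT at 0 h, 0.716 and 0.811 at 24 h, 0.442 and 0.624 at 72 h, then 0.490 and 0.548 at 144 h. Both 24 h libraries and 1 at 72 h stood above the untreated ones.

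**Figure D3:**
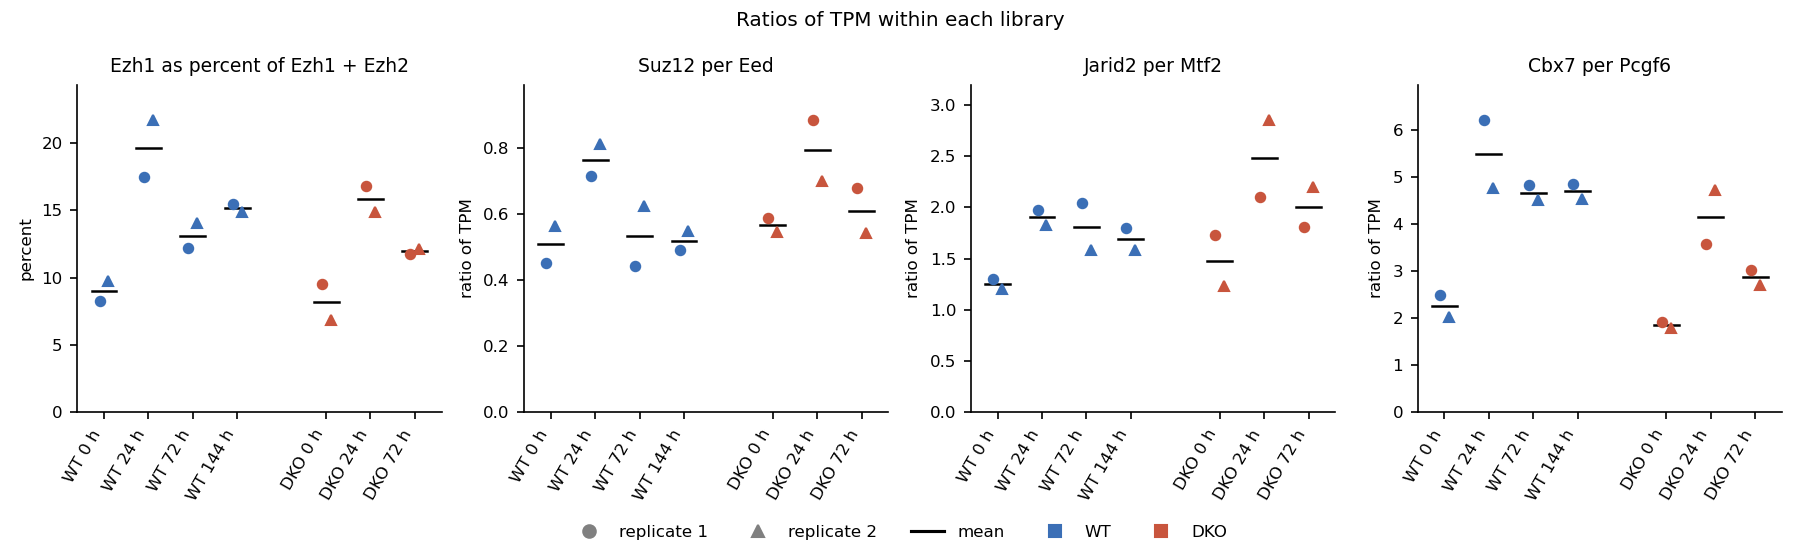
Ratios of TPM within each library (vertical axes, from 0; percent in the first panel), by genotype and hours of mTORi, with 1 symbol per replicate and a bar at the mean. The Ezh1 share and Cbx7 per Pcgf6 are above their 0 h values in every treated library, whereas Suz12 per Eed is above them in WT at 24 h and back among them at 144 h.

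On the spike-in scale the picture in WT at 144 h was one of falls. Of the 10 genes, 7 were called lower and none higher, where 56.2% of all genes tested were called lower and 0.523% higher. They were Pcgf6 (−1.34), Rnf2 (−1.15), Eed (−1.08), Suz12 (−1.04), Mtf2 (−1.03), Ezh2 (−1.02) and Kdm2b (−1.01), on the log2 scale. Since the median of all genes was −0.88, these 7 were between −0.13 and −0.47 relative to it. Ezh1, Cbx7 and Jarid2 lay above that median by 0.72, 0.58 and 0.28, beside 0.76, 0.67 and 0.37 on deposited TPM. As 1 factor per library moves all genes nearly alike, these distances are kept by construction and add no support. At 24 and 72 h in WT and at 72 h in DKO no gene of the set was called on the spike-in scale, and in DKO at 24 h Pcgf6 alone was, at −1.06 (adjusted p = 0.020). Of all genes, 11.4%, 9.47% and 3.76% were called in those 3 comparisons, and 21.8% were called lower in DKO at 24 h. With the replicate number as a block within each genotype more calls were made on this scale. In WT at 24 h Ezh1 was then called higher (4.8% of all genes) and Pcgf6 and Rnf2 lower (28.4%), and at 72 h Pcgf6 and Rnf2 were lower (28.6%). At 144 h Jarid2 joined the 7 lower genes (71.6%). In DKO at 24 h Pcgf6, Rnf2, Mtf2, Ezh2 and Eed were lower (42.7%), and at 72 h none was called.

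**Figure D4:**
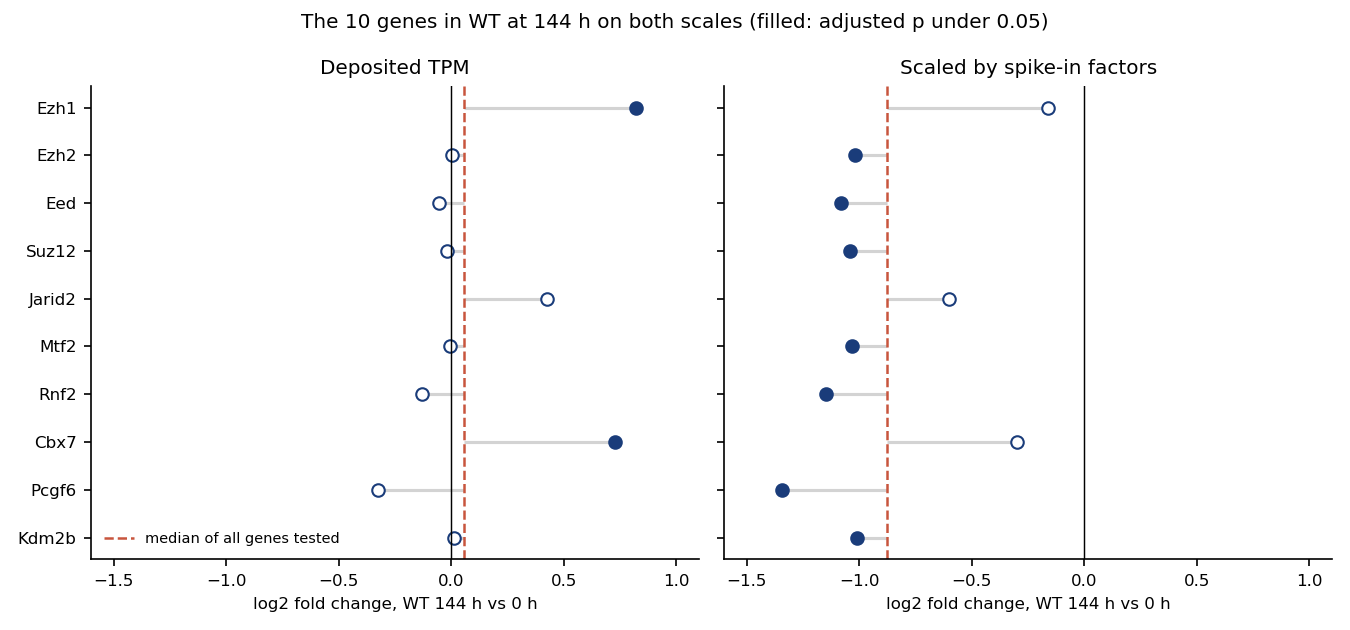
Log2 fold change in WT at 144 h against 0 h (horizontal axis) of the 10 genes on deposited TPM (left) and after scaling by spike-in factors (right). The dashed line is the median of all genes tested, at 0.057 and −0.88, grey lines give each gene's distance from it, and filled points have an adjusted p under 0.05: Ezh1, Cbx7 and Jarid2 lie right of the median on both scales, while their values are above 0 on the left and below 0 on the right.

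DKO cells were compared with WT cells at equal times. At 0 h and at 24 h no gene of the set was called between DKO and WT, where 0.812% (0.579% higher, 0.233% lower) and 1.74% (0.756% higher, 0.989% lower) of all genes tested were called. By an unadjusted p under 0.05 the set had 0, 1 and 4 genes in the comparisons at 0, 24 and 72 h, beside 14.9%, 16% and 22.7% of all genes tested. At 72 h Cbx7 alone was called, lower in DKO (log2 fold change −0.38, SE 0.0855, adjusted p = 0.035), where 5.21% of all genes were called (4.14% higher, 1.07% lower). The DKO libraries at 72 h (148 and 145 TPM) lay below those of WT (198 and 186 TPM), whereas at 24 h the groups overlapped. The call was lost without any 1 of the 4 libraries (adjusted p 0.102 to 0.173), with spike-in factors the direction turned to 0.029 (adjusted p = 0.939), and relative to the median of all genes it was −0.49 and −0.47 on the deposited and spike-in scales. The other 3 genes at an unadjusted p under 0.05 at 72 h were not called: Ezh2 differed by 0.31 (adjusted p = 0.139), Pcgf6 by 0.31 (adjusted p = 0.204) and Rnf2 by 0.24 (adjusted p = 0.216), all higher in DKO. The difference between the DKO and WT responses was tested directly and gave 0 calls in the set and 0 among all genes at both 24 and 72 h by limma, with 620 and 577 genes at an unadjusted p under 0.05. Within the set, 1 gene reached that level, Cbx7 at 72 h (−0.33, unadjusted p = 0.022, adjusted p = 0.9996). No response of the Polycomb genes that differed by genotype was thus detected.

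The other genes of the pathway were described from 4 lists of 52 names, of which 51 were found and 49 tested. In WT at 144 h 14 were called higher and 4 lower, and in DKO at 72 h 14 higher and 5 lower, which is 36.7% and 38.8% of those tested beside 30.1% and 28.9% of all genes. With spike-in factors these counts became 0 higher and 29 lower in WT at 144 h, where 56.2% of all genes were called lower, and 0 in either direction in DKO at 72 h, where 3.76% of all genes were called. Among other PRC2 subunits 0 of 7 were called higher and 2 lower in every comparison over time, beside 15.7%, 12.8% and 12.7% of all genes called lower in WT at 24, 72 and 144 h and 15.1% and 10.2% in DKO at 24 and 72 h. With spike-in factors 7 of 7 were lower in WT at 144 h (56.2% of all genes), 2 in DKO at 24 h (21.8%) and none in the other 3 comparisons. Rbbp4, a histone-binding protein of PRC2 and other complexes, went from 169.8 and 207 to 141 and 145 TPM in WT at 144 h (log2 fold change −0.39, SE 0.101, adjusted p = 0.016) and from 184 and 172 to 148 and 137 TPM in DKO at 72 h (log2 fold change −0.32, SE 0.101, adjusted p = 0.039). Its relative Rbbp7 went from 293 and 283 to 214 and 231 TPM in DKO at 72 h (log2 fold change −0.37, SE 0.0893, adjusted p = 0.012).

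Among other canonical PRC1 subunits 3 of 10 were called higher and 1 lower in WT at 144 h, beside 17.4% and 12.7% of all genes. With spike-in factors 0 were higher and 3 lower there, where 56.2% of all genes were called lower. Pcgf2, which encodes a subunit of canonical PRC1, went from 52.3 and 50.6 to 82.8 and 88.6 TPM (log2 fold change 0.72, SE 0.150, adjusted p = 0.0057), and its close relative Bmi1 (Pcgf4) went from 6.12 and 8.40 to 2.59 and 4.10 TPM (log2 fold change −0.94, SE 0.216, adjusted p = 0.0097). The 2 paralogues thus moved apart on deposited TPM, while with spike-in factors both were below 0, at −0.29 and −1.88. Scml2, a PRC1-associated protein, was higher in DKO at 72 h than at 0 h (log2 fold change 0.89, SE 0.232, adjusted p = 0.018) and than in WT at 72 h (log2 fold change 1.48, SE 0.232, adjusted p = 0.012), where it went from 4.67 and 7.53 to 15.5 and 21.7 TPM.

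Among other variant PRC1 subunits 7 of 20 were called higher and 1 lower in WT at 144 h, and 6 higher and 3 lower in DKO at 72 h, beside 17.4% and 12.7% and then 18.8% and 10.2% of all genes. With spike-in factors 0 were higher and 14 lower in WT at 144 h, where 56.2% of all genes were called lower. None was called in DKO at 72 h, where 3.76% of all genes were. E2f6, the E2F-family repressor that sits with Pcgf6 in the same variant complex, rose as a share from 12.8 and 16.5 to 27.0 and 26.7 TPM in WT at 144 h (log2 fold change 0.84, SE 0.114, adjusted p = 0.00073) and from 15.2 and 15.6 to 33.1 and 31.5 TPM in DKO at 72 h (log2 fold change 1.02, SE 0.114, adjusted p = 0.00043), and with spike-in factors was at −0.14 and 0.75. Tfdp1, a dimerisation partner of E2F proteins, was lower in DKO at 72 h (log2 fold change −0.39, SE 0.116, adjusted p = 0.029). Auts2, a partner in other variant complexes, was higher in WT at 144 h (log2 fold change 0.68, SE 0.128, adjusted p = 0.0035) but at −0.28 with spike-in factors, and Pcgf5 was lower (log2 fold change −0.56, SE 0.153, adjusted p = 0.021). Between genotypes at 72 h, Bcorl1 (log2 fold change 1.17, SE 0.166, adjusted p = 0.0086) and Yaf2 (log2 fold change 0.76, SE 0.159, adjusted p = 0.029) were higher in DKO. Of the enzymes that oppose Polycomb, 4 of 12 were called higher and 0 lower in WT at 144 h and in DKO at 72 h, beside 17.4% and 18.8% of all genes called higher. With spike-in factors 0 were higher and 5 lower in WT at 144 h, against 56.2% of all genes lower. None was called in DKO at 72 h, against 3.76% of all genes. Asxl3, a cofactor of the H2A deubiquitinase, went from 0.916 and 1.31 to 2.75 and 2.74 TPM in DKO at 72 h (log2 fold change 0.83, SE 0.165, adjusted p = 0.0054).

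**Figure D5:**
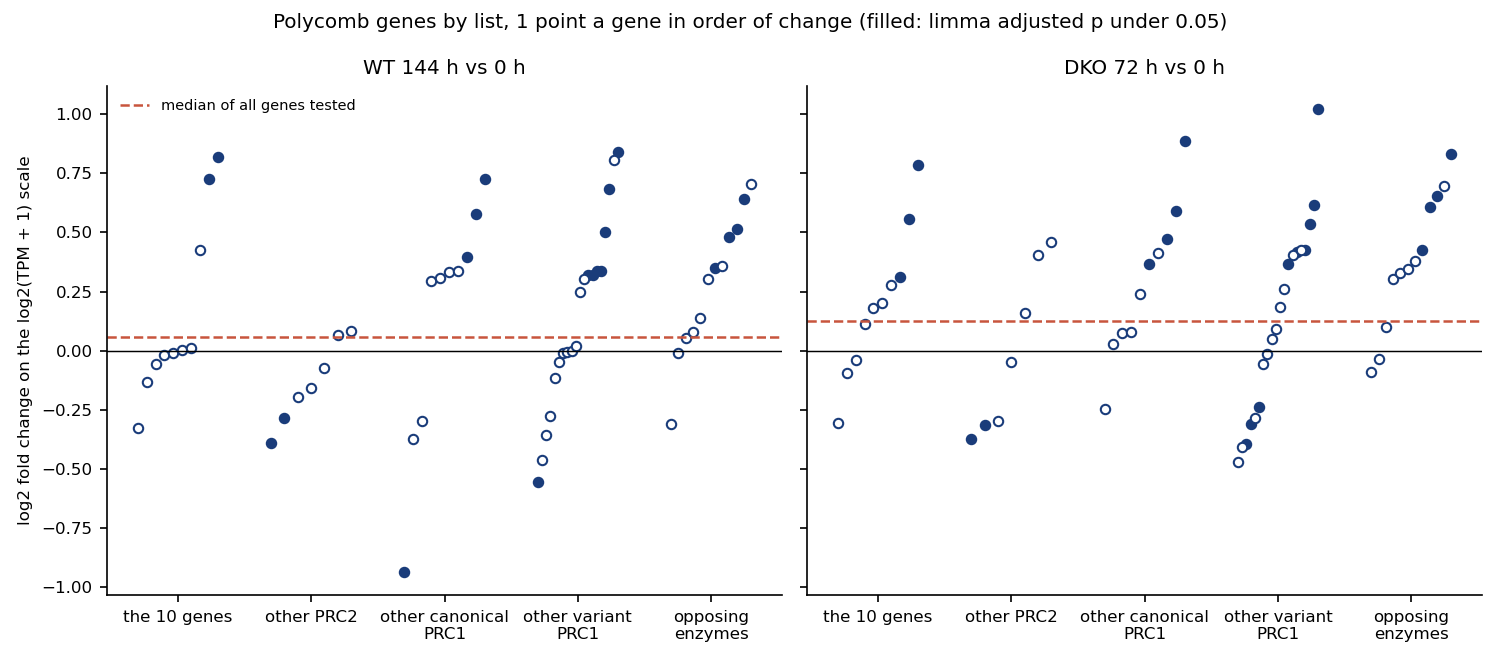
Log2 fold change on the log2(TPM + 1) scale (vertical axis) of the 10 genes and of the 4 lists of other Polycomb genes, 1 point a gene in order of its change, in WT at 144 h (left) and DKO at 72 h (right) against 0 h, with filled points at a limma adjusted p under 0.05 and the median of all genes tested dashed. Filled points of other PRC2 subunits lie below 0 only, while the other lists have filled points above 0 in both panels, none of which was called higher with spike-in factors.

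The genes with the pattern most like each methyltransferase were found by Pearson's r of log2(TPM + 1) over the 14 libraries, among 10642 genes of at least 5 TPM, as a description. For Ezh1 they were Fnip1 (r = 0.98), Tbc1d15 (0.98) and Pdcd4 (0.98), and for Ezh2 Atpaf1 (0.92), Paip2 (0.91) and Ppp2r5a (0.91). Within the set, Ezh1 followed Jarid2 (0.85) and Cbx7 (0.82) and ran against Pcgf6 (−0.69), while Ezh2 followed Eed (0.77) and had an r of −0.20 with Ezh1. The libraries share treatment and scaling, so these values carry no test.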

How the data were processed

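The authors prepared ribosomal RNA-depleted libraries with ERCC spike-ins, trimmed reads with cutadapt, aligned them to mm10 with STAR and quantified GENCODE VM19 genes with StringTie. The submitters' processing notes name cutadapt 2.4, STAR 2.7.3a and StringTie 2.0. The authors deposited TPM, which add up to 1000000 in a library and have no spike-in entries. TPM keep no read counts, so depth is unknown and no counting error can be given. Entries of 1 gene identifier were summed.

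The main test was limma 3.58.1 (R 4.3.3) on log2(TPM + 1), which understates changes of low genes, for the 15878 of 38890 expressed genes whose TPM averaged 1 or more across the 14 libraries. All 7 groups were fitted together with a mean-variance trend, 10 comparisons were made, and p-values were adjusted by Benjamini-Hochberg over all genes tested (called under 0.05). The fit was tested on simulated data.

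The members, lists and tests were chosen with earlier results of these data known. Named genes are the 10 members, Tet1, Tet2 and Tet3, the 3 largest called rises and falls per list group in WT at 144 h, DKO at 72 h and DKO against WT at 72 h, and the 3 genes most like Ezh1 and Ezh2 (spanning at least 200 bp). A gene of the developmental list that this rule names is not reported here. Apobec3 and Rnf34 were named for their overlap, from GENCODE M21 exons on the same assembly.

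The study states that the time points of a biological replicate were processed in parallel, so replicate numbers pair libraries within a genotype. Replicate differences correlated over 0.1 in 3 of 3 pairs of groups within DKO (0.247 to 0.405) and in 5 of 6 within WT (0.068 to 0.461), but were below 0 in 10 of 12 pairs between genotypes. The study states that its experiments were repeated independently. GEO's labels do not say that the replicates of a group were separate cultures, in which case p-values measure only the spread between these libraries. Alternatives were a pseudocount of 0.1, no filter, spike-in factors, median centring, only the groups compared, replicate blocks and leaving out each replicate. The spike-in factors are 1 constant per library, the median ratio of the study's normalised table to the deposited TPM.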

Additional observations from a re-analysis of the deposited data

How the results depend on the processing

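Of the 18 member calls, all 18 kept direction and threshold with a pseudocount of 0.1, 17 of 17 with the replicate number as a block within each genotype (which cannot test DKO against WT), 17 of 18 with the block across all libraries, 15 with median centring, 12 with no filter, 10 with only the groups compared and 1 with spike-in factors. The block within each genotype gave 5 member calls in DKO at 24 h and 4 at 72 h instead of 4 and 3, through Suz12, and changed no other call. Replicate differences ran against each other between the genotypes, and a block with the numbers crossed between them, added after seeing the data, gave 5, 4, 3, 5 and 3 member calls over time and 0, 0 and 1 between genotypes.

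The number of members called is given here where it moved by over 1.5 times, with its range without 1 replicate beside it, whether or not that moved. In WT at 24 h (5 calls) it was 3 with no filter, 3 with only the groups compared, 0 with spike-in factors, 3 with spike-in factors and the block, and 2 to 3 without 1 replicate. In WT at 72 h (3 calls) it was 0 with spike-in factors and 2 to 3 without 1 replicate. In WT at 144 h (2 calls) it was 7 with spike-in factors, 8 with spike-in factors and the block, all lower, and 2 to 3 without 1 replicate. In DKO at 24 h (4 calls) it was 1 with spike-in factors, 2 with only the groups compared and 2 to 4 without 1 replicate. In DKO at 72 h (3 calls) it was 0 with spike-in factors, also with the block, 1 with only the groups compared and 1 to 2 without 1 replicate. For DKO against WT at 72 h (1 call) it was 0 with no filter, with spike-in factors, with only the groups compared, with the block across all libraries and without any 1 replicate. Directions reversed with spike-in factors for Ezh1 (−0.16) and Cbx7 (−0.30) in WT at 144 h, likewise with the block added, and for Cbx7 between genotypes at 72 h (0.029).

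Over all genes, calls in WT at 24, 72 and 144 h, in DKO at 24 and 72 h and between genotypes at 0, 24 and 72 h were 5284, 4324, 4781, 4479, 4591, 129, 277 and 828. With spike-in factors they were 1809, 1504, 9000, 3542, 597, 7, 11 and 83, with only the groups compared 3381, 2184, 3837, 1235, 3448, 1, 4 and 5, and without 1 replicate 3346 to 3970, 2100 to 3025, 2190 to 3266, 2703 to 3912, 1971 to 3086, 1 to 14, 43 to 67 and 41 to 91. Between genotypes they were 45, 160 and 439 with the block across all libraries, 481, 746 and 1899 with the crossed block, and 181 and 526 at 24 and 72 h with no filter. Median centring changed the split in WT at 24, 72 and 144 h from 2799 higher and 2485 lower, 2292 and 2032, and 2762 and 2019 to 2386 and 3041, 1906 and 2525, and 2162 and 2600. It changed the split from 2978 and 1613 to 1782 and 2590 in DKO at 72 h, from 92 and 37 to 70 and 50 between genotypes at 0 h and from 658 and 170 to 213 and 243 at 72 h. Leaving out a replicate leaves a lone library that is assumed to vary like the other groups. Low genes are limited by the unknown depth.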

Other observations

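Developmental regulators that Polycomb complexes keep silent in ES cells were listed under 61 names, which matched 62 gene identifiers, and 13 of these reached a mean of 1 TPM, so the values describe those 13 only. In WT 6 were called higher and 2 lower at 24 h, 2 higher and 0 lower at 72 h, and 1 higher and 1 lower at 144 h, beside 17.6% and 15.7%, 14.4% and 12.8%, and 17.4% and 12.7% of all genes tested. With spike-in factors these counts were 6 and 1, 0 and 0, and 0 and 5. Of all 15878 genes tested, 211 were then called higher and 1598 lower at 24 h. At 72 h these numbers were 123 and 1381, and at 144 h 83 and 8917. The 13 were kept by their mean over all libraries, so that a gene near silence at 0 h could enter through the group where it was high, and nothing is read from their counts against those shares. Gata4, Gata6, Sox17 and Foxa2 of this list are also primitive endoderm markers, which were higher in WT at 24 h. At 144 h Eomes, a regulator of mesendoderm and trophoblast, went from 2.79 and 2.69 to 5.84 and 6.23 TPM (log2 fold change 0.91, SE 0.186, adjusted p = 0.0053), but with spike-in factors was at 0.093 (adjusted p = 0.817), and the cell cycle inhibitor locus Cdkn2a went from 6.16 and 6.92 to 4.71 and 4.30 TPM (log2 fold change −0.45, SE 0.151, adjusted p = 0.045).

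In DKO at 72 h 3 of the 13 were called higher, beside 18.8% of all genes, and because of the same filter nothing is read from this count either. With spike-in factors none of the 13 was called in DKO at 72 h, where 3.76% of all genes were, or between genotypes at 72 h. The mesoderm regulator Eomes went from 2.10 and 3.19 to 3.86 and 4.87 TPM (log2 fold change 0.57, SE 0.186, adjusted p = 0.044). Hoxc12 went from 0.553 and 1.08 to 2.93 and 2.52 TPM and T (brachyury), a primitive streak gene, from 0.311 and 0.256 to 1.29 and 1.72 TPM. Both averaged under 1 TPM at 0 h and reached the filter through groups where they were higher, so their values are given with no test. Between genotypes at 72 h, where 5.21% of all genes were called, Pax6, a neural regulator, was lower in DKO, from 3.13 and 3.83 to 1.01 and 1.05 TPM (log2 fold change −1.14, SE 0.284, adjusted p = 0.048), and Cdkn2a was higher, from 4.92 and 5.16 to 10.96 and 10.01 TPM (log2 fold change 0.93, SE 0.151, adjusted p = 0.014). Several of these levels were below 5 TPM, where the depth behind them is unknown.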
